A study of Trichoderma reesei QM6a with 24 samples.

Results

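The set described here holds 160 of the 10879 gene models of *Trichoderma reesei* (1.47%), chosen for a strong rise with methionine in wild type mycelium in light and in darkness alike. Members were picked from the 12 wild type libraries on group means of CPM (each count divided by the library's total and put on 1 common scale) with 0.5 CPM added. A model entered the set when both means with methionine reached 5, each was at least 8 times its counterpart without methionine in the same lighting, and the mean in darkness with methionine lay between 0.25 and 4 times the mean in light with methionine. *T. reesei* is a filamentous ascomycete grown industrially for its cellulases. The 24 libraries fall into 8 groups of 3: mycelium of the deletion mutant QM6aΔ72004 in constant light with methionine, in light without it, in darkness with methionine and in darkness without it, and the same 4 groups of wild type QM6a. Cellulose in a minimal medium at 28 °C was the carbon source of every group, and methionine, where present, was 5 mM L-methionine. The growth protocol gives 96 h of growth and the sample labels 72 h, and the sources used here do not settle which holds. The labels do not say how many transformants the mutant stands for, nor whether replicate libraries derive from separate cultures. The p-values below therefore measure only how far these samples spread, and that spread may be technical.

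Methionine is a sulfur-containing amino acid that fungi import through amino acid permeases and use in protein synthesis, as the precursor of the methyl donor S-adenosylmethionine and as a source of sulfur and nitrogen. In *Aspergillus* and *Neurospora*, genes for the uptake and breakdown of such nutrients are switched on and off by regulators that sense sulfur and nitrogen supply, and a preferred sulfur source shuts down the genes that fetch poorer ones. Light is a second input in *T. reesei*, where blue-light photoreceptors adjust metabolism and enzyme production. By its title, the series asks about a G-protein coupled receptor and methionine. The mutant libraries had no part in choosing the set, so they are where its response can be tested. None of the 160 members carries a gene symbol in the sources used here, so they are named by their model identifiers, with a locus tag where one could be linked (83 members, 51.9%, against 36.9% of all models), and no role is given to any of them.

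Library totals ran from 13210988 to 21224989 counts, so that 3 counts in a library correspond to 0.141 to 0.227 CPM. TrE0303W, linked to the deleted gene, had 0 counts in the 12 mutant libraries and 86 to 579 in the 12 wild type libraries. The light libraries and the dark libraries come from distinct series of library numbers, so lighting and that series cannot be told apart. Wild type light replicate 3 stood apart: the members took up 0.421% of its counts, against 0.237% and 0.257% in the other 2 libraries of that group. The median member was higher there by 0.41 on the log2 scale than in those 2. Without that library the same rule found 185 models, 159 of them among the 160. Bulk RNA cannot tell fewer cells that express a gene from less RNA per cell.

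Taken as 1 group, the members made up a far larger share of all counts with methionine than without, in both genotypes. In the mutant in light the members together held 6.09% ± 0.504 of all counts with methionine and 0.239% ± 0.016 without (SD, n = 3 each). In the mutant in darkness the shares were 5.71% ± 0.172 with methionine and 0.165% ± 0.0151 without. Wild type, which chose the members, held 5.71% ± 0.239 with and 0.305% ± 0.101 without methionine in light, and 6.02% ± 0.108 with and 0.184% ± 0.00637 without in darkness. The median member averaged 128 CPM with methionine and 2.83 CPM without in mutant light, and 117 CPM with and 2.37 CPM without in mutant darkness. With methionine 12 members exceeded 1000 CPM in both mutant groups and 3 stayed under 10 CPM in both. Without methionine 33 members were over 10 CPM in both mutant groups and 41 were under 1 CPM in both.

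**Figure D1:**
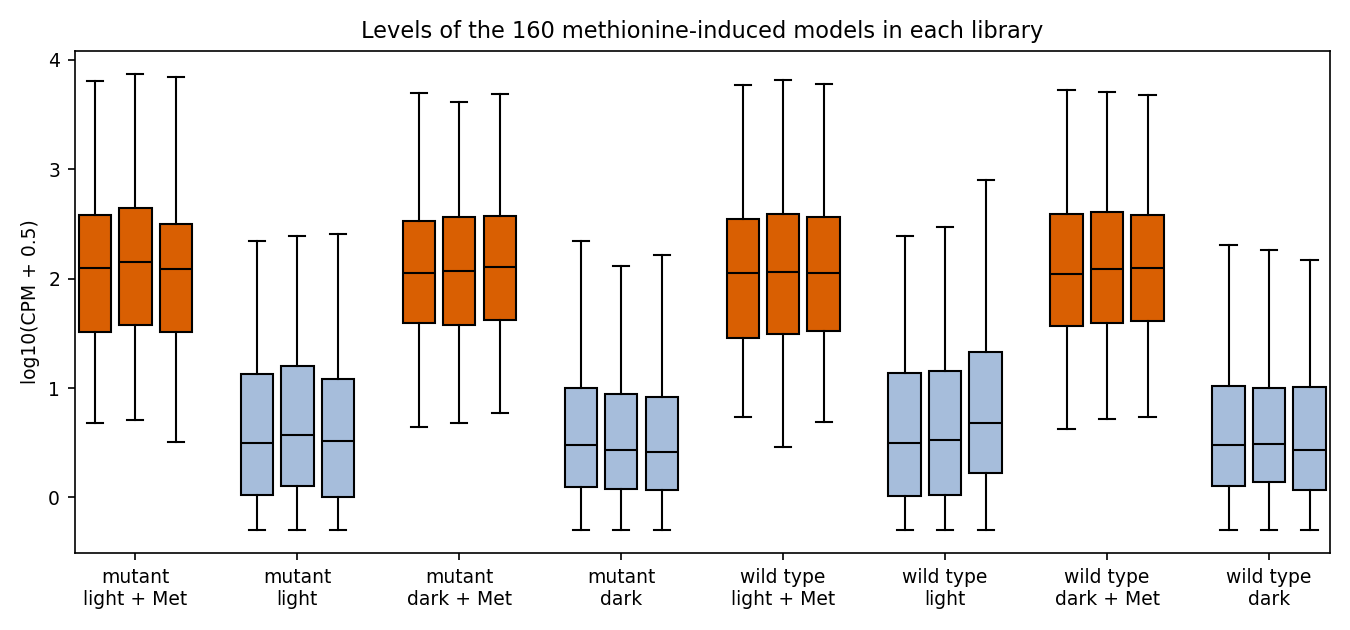
Levels of the 160 members in each of the 24 libraries, as log10(CPM + 0.5), grouped by genotype, lighting and methionine (Met). Boxes span the quartiles, the line is the median and whiskers reach the lowest and highest member. Every box with methionine lies above every box without, and wild type light replicate 3 is the highest library without methionine.

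The levels were concentrated in few genes. The 10 members highest in CPM held 45.1% to 48.0% of the set's counts in each mutant library with methionine. TrB0864C (contig 1, 2687413 to 2688613, minus strand, 4 exons, coding length 1029 bases) was the highest. It had 6422, 7499 and 6974 CPM with methionine, against 157, 243 and 113 CPM without, in mutant light. In mutant darkness it had 5014, 4109 and 4927 CPM with methionine, against 106, 66.6 and 62.0 CPM without. The libraries with and without methionine are far apart in both lightings. The log2 fold changes were 5.19 (SE 0.28) in light and 5.66 (SE 0.29) in darkness. Wild type gave 5853, 6575 and 6044 CPM with methionine in light, against 219, 245 and 801 CPM without, the last value being that of replicate 3.

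TrA2081W (contig 0, 6630959 to 6634145, plus strand, coding length 3009 bases) was next, with 4187, 4291 and 3773 CPM with methionine, against 221, 242 and 254 CPM without, in mutant light. TrC0964C (locus tag TRIREDRAFT_120079, contig 2, 3306176 to 3307549, minus strand) had 3131, 3419 and 2879 CPM with methionine, against 54.2, 59.5 and 53.8 CPM without, in mutant light. In mutant darkness TrC0964C had 3331, 3163 and 3273 CPM with methionine, against 24.8, 24.6 and 26.1 CPM without. With methionine the light and dark libraries of TrC0964C overlap, whereas without it the light libraries are all above the dark ones. TrB0738W, TrD0058W, TrC0402C, TrB1914C, TrE0705W, TrD1229W and TrD0370W complete the 10 highest, at 1478 to 2523 CPM as means over the 6 mutant libraries with methionine. Per length of coding sequence the order among these 10 differed: as means over the mutant libraries with methionine, TrB0864C had 5660 CPM per kb, TrC0964C 2582, TrB1914C 1849, TrD0058W 1697 and TrB0738W 1617, while the long TrA2081W had 1309. TrC0951C, a single-exon model of 300 coding bases, reached 2749 CPM per kb, the second highest level per length in the set.

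The values that chose the members are given here only as a description. With 0.5 CPM added, the wild type ratios of methionine to no methionine had a median of 16.4 in light (8.09 to 566) and 24.4 in darkness (8.03 to 717). Just inside the limit of 8 were TrC0010W with 9.13 in light and 8.03 in darkness, TrC0324W with 19.5 and 8.08, and TrB1948C with 8.09 and 17.1. Just outside were TrB1696C with 7.98 in light and 20.5 in darkness, TrG1045C with 7.95 and 18.8, and TrF0153W with 7.94 and 19.2. The limit cuts through a continuum: 201 other models met the remaining conditions with a smaller ratio between 4 and 8. A further 11 models passed 8-fold in both lightings but differed too much between lightings to enter.

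The response was tested in the 12 mutant libraries, which had no part in choosing the members. Every one of the 160 members rose with methionine in mutant light, and every one rose in mutant darkness (edgeR's quasi-likelihood test, Benjamini-Hochberg adjusted p at most 1.07e-06 in light and 1.04e-06 in darkness). Over the 9168 models tested, 36.8% were called higher in light and 38.7% in darkness, and 33.3% and 36.7% were called lower. The members' median log2 fold change was 5.08 in light (2.82 to 13.07) and 5.00 in darkness (2.66 to 12.08), beside 0.03 over all models in each lighting. Fitted values at the upper ends are poorly determined where a group had few or no counts. The value of 12.08 is that of TrA0432C, with 0 counts in mutant darkness without methionine. The filter on low counts needs care here: 130 of the 160 members would pass it on the libraries without methionine alone. The other 30 passed only through the libraries with methionine, so their calls were at least in part fixed by the filter. That split pools both lightings and does not say in which lighting a call was fixed. The medians above and the counts that follow are over all 160 members, those 30 included. At least 8-fold calls numbered 156 members in light, where 6.18% of all models reached that size, and 156 in darkness, where 7.54% did. Both lightings reached 8-fold for 152 members and for 355 models in all (3.87%), so 203 models outside the set also reached it. For each of the 160 members the lowest mutant library with methionine lay above the highest without, in both lightings, by a ratio of at least 6.32 in light and 5.87 in darkness.

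**Figure D2:**
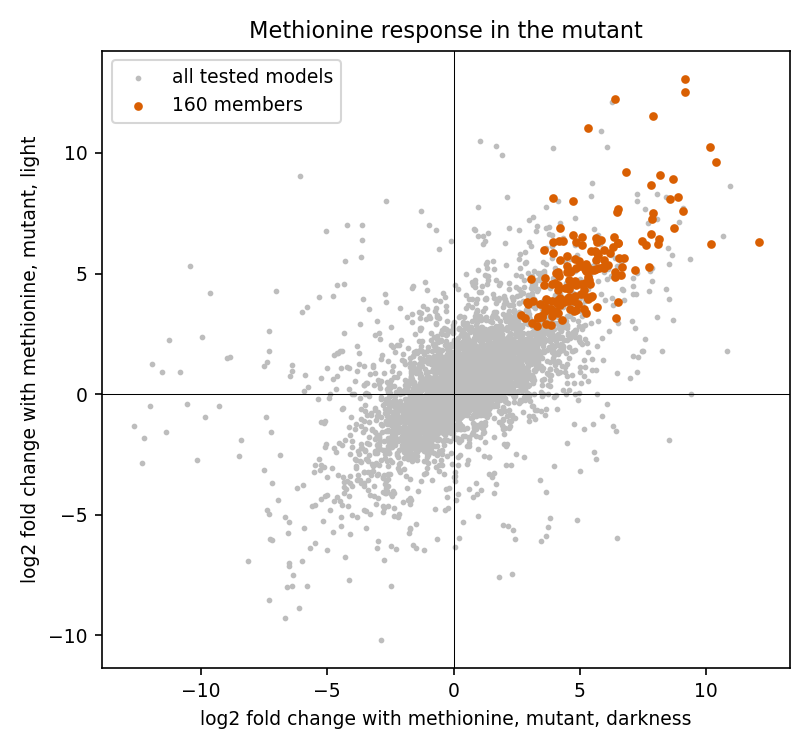
Log2 fold change with methionine in mutant light (vertical axis) against mutant darkness (horizontal axis), 1 point per tested model, with the 160 members in orange. All members lie in the upper right, at or above 2.82 in light and 2.66 in darkness, together with models outside the set.

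Some members had next to no transcript without methionine, and their fold changes are bounds. In mutant darkness TrA0432C had 0 counts in all 3 libraries without methionine and 33.5, 34.1 and 27.3 CPM with it, at least 547-fold higher when 3 counts over the group are taken as the floor. In mutant light 4 members had 0 counts without methionine. TrF1120W (locus tag TRIREDRAFT_67692) had 54.0, 69.4 and 63.9 CPM with methionine there and was at least 1150-fold higher. TrD1272C was at least 393-fold, TrB0081C at least 281-fold and TrG0922W at least 72.9-fold higher. The fitted log2 values of these members are no bounds, and the medians over the set were 5.08 in light and 5.00 in darkness also with the members at their bounds. TrC1371W had 1 count in the mutant light group without methionine, a ratio of 8958 (95% counting interval 1608 to 353827), and TrA2099W had 2, a ratio of 6150 (1702 to 50779). In mutant darkness TrG1138W had 2 counts without methionine, a ratio of 1633 (452 to 13481). Such floors and intervals reflect counting error alone.

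At the other end, 4 members in each lighting fell short of 8-fold in the mutant, though all were called higher. TrC0419W (contig 2, 1375694 to 1376616, plus strand) had the smallest fold change in light. It had 484, 516 and 396 CPM with methionine, against 60.6, 52.7 and 62.4 CPM without, in mutant light, a log2 fold change of 2.82 (SE 0.12). In mutant darkness it had 329, 410 and 413 CPM with methionine, against 36.4, 29.9 and 32 CPM without, a log2 fold change of 3.29 (SE 0.12). This member was thus clearly transcribed in every library. The 3 models just outside the wild type limit also rose in the mutant: TrB1696C, TrG1045C and TrF0153W rose by log2 4.21, 2.72 and 2.75 in light and by 4.74, 3.97 and 4.17 in darkness. In light TrG1045C and TrF0153W thus lay slightly below the lowest member, at 2.82.

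The rule held the light and dark levels of the members within 4-fold of each other with methionine in wild type, and set no such limit without it. A narrower light difference with methionine is thus in part fixed by the choice of members, and the values in the mutant are given as a description. With methionine, 39 members were higher in mutant light than in mutant darkness and 37 were lower (edgeR's quasi-likelihood test, Benjamini-Hochberg adjusted), where 17.4% and 20.5% of all models were. Without methionine, 62 were higher in light and 37 lower, where 30.6% and 29.3% of all models were. The size of the light difference, as a median of absolute log2 values, was 0.36 with methionine and 0.86 without it over the members, beside 0.26 with and 0.46 without over all tested models. Nothing about the members is read from the gap between their 2 values. The difference between the lightings in the methionine response itself, tested as an interaction, was called for 73 members (45.6%, beside 41.8% of all tested models). It was positive (a larger response in light) for 22, where 20.6% of all models were positive, and negative for 51, where 21.2% were. Of the 51 with a smaller response in light, 13 were called lower in light with methionine (25.5%, beside 29.4% of all models with a negative interaction) and 42 higher in light without it (82.4%, beside 78.3%). Of the 22 with a larger response in light, 5 were called higher in light with methionine (22.7%, beside 25.8% of all models with a positive interaction) and all 22 lower in light without it (beside 84.8%). Since library series and lighting coincide, the part of that series in these differences cannot be told apart from lighting.

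**Figure D3:**
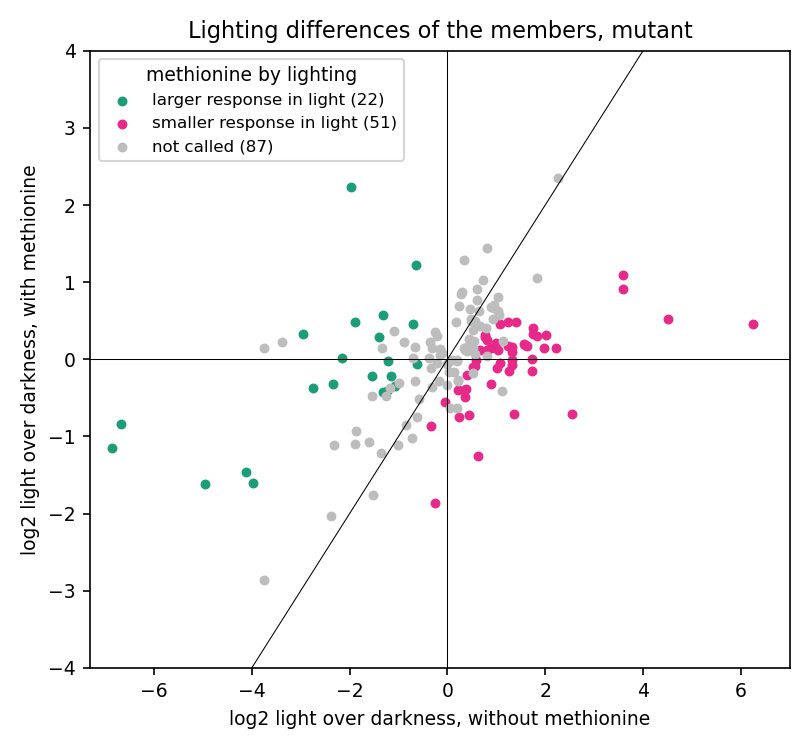
Log2 ratio of light over darkness in the mutant with methionine (vertical axis) against without methionine (horizontal axis), 1 point per member, coloured by the interaction call. The line marks equal values on both axes. The extremes are −2.87 and 2.35 on the vertical axis, which shows the quantity that the rule limited in wild type, and −6.86 and 6.25 on the horizontal axis, which it did not limit. The horizontal extremes are TrB0081C and TrA0432C, each with 0 counts in 1 of the compared groups, so their size is poorly determined.

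The 3 members with the largest positive interaction lay very low in light without methionine. TrA2099W (locus tag TRIREDRAFT_58717, contig 0, 6680177 to 6681602, plus strand) had 168, 199 and 313 CPM with methionine, against 0, 0.118 and 0 CPM without, in mutant light. In mutant darkness it had 351, 465 and 411 CPM with methionine, against 5.05, 3.65 and 3.57 CPM without. Its interaction was 5.83 on the log2 scale (SE 0.76; edgeR's quasi-likelihood test, adjusted p = 5.75e-05). It was 8.56 without mutant light replicate 2, the only one of the 3 with a count, and 5.24 without replicate 1. Wild type had 0, 0.152 and 3.72 CPM in light without methionine, and 0.511, 4.18 and 0.463 CPM in darkness without it, so the libraries of each wild type group differ widely and the 2 groups overlap. TrB0081C (locus tag TRIREDRAFT_112491, contig 1, 251226 to 252428, minus strand) had 14.7, 17.5 and 13.2 CPM with methionine, against 0 counts in all 3 libraries without, in mutant light. Its dark mutant libraries had 26.8, 33.4 and 41.3 CPM with methionine, against 0.454, 1.27 and 0.363 CPM without. Its interaction of 5.71 rests on the group with no counts and was 4.94 without mutant dark replicate 2 and 5.09 by DESeq2.

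TrA0227C (contig 0, 630440 to 631266, minus strand, coding length 747 bases) moved in opposite directions with and without methionine. It had 219, 236 and 250 CPM in light and 54.1, 49.3 and 47.9 CPM in darkness with methionine, in the mutant. Without methionine it had 1.20, 0.474 and 0.449 CPM in mutant light and 3.24, 2.21 and 2.72 CPM in mutant darkness. So light went with more transcript when methionine was there and with less when it was not, and neither pair of groups overlaps. The light over darkness ratios were 2.23 (SE 0.15) with methionine and −1.96 (SE 0.28) without on the log2 scale, and the interaction was 4.19 (SE 0.31; edgeR's quasi-likelihood test, adjusted p = 4.61e-07), or 4.85 without mutant light replicate 1. Wild type, which was not tested, had 178, 170 and 152 CPM in light with methionine and 64.8, 73.2 and 56.8 CPM in darkness with it. Without methionine wild type had 0.696, 0.609 and 1.96 CPM in light and 3.32, 4.92 and 2.08 CPM in darkness, with no overlap in either medium.

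The 3 members with the largest negative interaction were the mirror image, lowest in darkness without methionine. TrA0432C (contig 0, 1251714 to 1252376, minus strand, coding length 498 bases) had 42.5, 44.8 and 42.7 CPM with methionine, against 0.287, 0.533 and 0.674 CPM without, in mutant light. With no counts in mutant darkness without methionine, its interaction of −5.79 (−4.97 by DESeq2) is no bound. TrG1138W (locus tag TRIREDRAFT_56587, contig 6, 3644937 to 3645756, plus strand) had 75.1, 100 and 92.0 CPM with methionine, against 1.20, 0.889 and 1.07 CPM without, in mutant light. TrG1138W in mutant darkness had 56.6, 64.0 and 66.4 CPM with methionine, against 0.114, 0 and 0 CPM without. Its interaction was −3.98, and −6.86 without mutant dark replicate 1, the only one of the 3 with counts. TrC1355C (locus tag TRIREDRAFT_59197, contig 2, 4605746 to 4606942, minus strand) was measured well above the floor in every group. It had 80.0, 96.9 and 83.6 CPM with methionine, against 7.18, 11.6 and 7.24 CPM without, in mutant light. Mutant darkness gave 125, 134 and 170 CPM with methionine, against 1.59, 1.22 and 1.33 CPM without. The response was large in both lightings but smaller in light, with an interaction of −3.26 (SE 0.27; edgeR's quasi-likelihood test, adjusted p = 9.65e-07).

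TrC0951C (contig 2, 3266286 to 3266585, minus strand) had the highest ratio of light over darkness among the members with methionine. It had 1003, 1827 and 1306 CPM in light and 343, 259 and 211 CPM in darkness with methionine, in the mutant, a log2 ratio of light over darkness of 2.35 (SE 0.32). Wild type had 1467, 1526 and 1439 CPM in light with methionine and 418, 418 and 305 CPM in darkness with it. Light and dark libraries do not overlap in either genotype.

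With methionine the levels of the set in the mutant were close to those in wild type. Because wild type libraries chose the members, this comparison is a description with no test. Libraries are compared as groups, without pairing by number. The ratio of mutant to wild type had a median of 1.08 over the members in light (0.805 to 2.68) and 0.966 in darkness (0.712 to 2.05), beside 1.0 and 0.986 over all models at 1 CPM or more. It stayed within 1.5-fold for 96.2% of members in light and 96.9% in darkness, and for 97.5% and 97.1% of all models. In light with methionine, 34 members had all 3 mutant libraries above all 3 wild type libraries, where 8.34% of all models did, and 1 had them all below, where 5.99% did. Mutant light replicate 2 with methionine was the highest of its group, with 6.63% of counts on the members against 6.0% and 5.63%. Without it the median ratio was 1.04, with 35 members higher (21.9%, beside 10.8% of all models) and 12 lower (7.5%, beside 11.4%). The count of members higher was 63 without mutant replicate 1 (19.1% of all models) and 62 without mutant replicate 3 (14.2% of all models), since fewer libraries overlap less. In darkness with methionine the balance lay the other way: 9 members were higher in the mutant with no overlap (5.62%, beside 6.78% of all models) and 21 were lower (13.1%, beside 9.36%). Leaving out 1 of those 6 libraries gave 11 to 20 members higher (8.46% to 13.5% of all models) and 23 to 51 lower (11.9% to 20.9%). The most members were lower without wild type replicate 1 (51) and without mutant replicate 3 (40), and the most were higher without wild type replicate 3 (20) and without mutant replicate 1 (17), with 14 without mutant replicate 3 or wild type replicate 2.

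Without methionine, where members are low, 118 members reached 1 CPM in at least one genotype in light and 113 in darkness. The median ratio of mutant to wild type was 0.880 in light and 0.932 in darkness, beside 1.04 and 0.960 over all models. In light 78.0% of the 118 members were within 1.5-fold, against 93.8% of all models. In darkness 88.5% of the 113 members were, against 96.9% of all models. Without wild type light replicate 3 the median in light was 1.01 (1.02 over all models), and 92.4% of members were within 1.5-fold, against 97.2% of all models.

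The member that stood highest in the mutant over the methionine groups was TrC1580C (contig 2, 5307173 to 5309180, minus strand, 6 exons). It had 62.6, 74.5 and 73.7 CPM in mutant light with methionine, against 26.6, 29.9 and 22.2 CPM in wild type light with methionine. In darkness with methionine it had 74.2, 70.4 and 64.8 CPM in the mutant, against 43.9, 65.9 and 54.9 CPM in wild type, where the genotypes overlap. TrD1304C (contig 3, 4088727 to 4089380, minus strand, 1 exon) had 70.8, 58.3 and 64.3 CPM in mutant light with methionine, against 35, 36.3 and 45.5 CPM in wild type. In darkness with methionine TrD1304C had 117, 148 and 157 CPM in the mutant, against 51.8, 83.0 and 83.6 CPM in wild type, with no overlap in either lighting. TrA0233C followed, with 240, 313 and 289 CPM in mutant light with methionine, against 143, 154 and 145 CPM in wild type. Its dark groups with methionine overlap, at 229, 165 and 153 CPM in the mutant, against 172, 157 and 142 CPM in wild type. Taken by library number, TrA0233C and TrC1580C were both higher in the mutant at each number in darkness with methionine.

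At the low end the mean ratios were closer to 1. TrC0419W, described above, had a ratio of 0.812, TrC0951C 0.815 and TrF1128W 0.851 over the methionine groups. TrC0419W had 329, 410 and 413 CPM in mutant darkness with methionine, against 526, 487 and 474 CPM in wild type, with no overlap. In light with methionine its genotypes overlap, at 484, 516 and 396 CPM in the mutant, against 479, 542 and 619 CPM in wild type. TrF1128W overlaps in both lightings: 260, 282 and 213 CPM in mutant light with methionine, against 257, 358 and 292 CPM in wild type, and 128, 165 and 190 CPM in mutant darkness with methionine, against 147, 212 and 196 CPM in wild type. Taken by library number, it was lower in the mutant at each number in darkness with methionine.

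Position along the contigs was not used to choose the members. Of the 160, 36 (22.5%) lay next to another member. Allowing 1 other model between neighbours, 17 runs of 2 or more members held 45 of them, and 6 runs of 3 or more held 23. Members are 1.47% of all models. No such counts were made for other sets of models, so these are a description only. Coordinates are those of the count table, whose genome build is not named. The longest runs are described next, with the methionine response in the mutant.

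The first run spans 12.8 kb of contig 1 (993284 to 1006108), where 5 of 6 consecutive models are members. They are TrB0327C, TrB0328W, TrB0329W, TrB0330C (locus tag TRIREDRAFT_4146) and TrB0332W (TRIREDRAFT_62576). Together they averaged 1401 ± 270 CPM with methionine and 45.1 ± 5.25 CPM without in mutant light, and 1123 ± 79.2 CPM with and 17.8 ± 1.02 CPM without in mutant darkness (SD, n = 3 each). TrB0330C responded most, with 625, 632 and 399 CPM with methionine, against 1.48, 2.49 and 4.21 CPM without, in mutant light. In mutant darkness TrB0330C had 359, 441 and 457 CPM with methionine, against 1.65, 1.60 and 1.15 CPM without. Its log2 fold changes were 7.5 (SE 0.31) in light and 7.89 (SE 0.33) in darkness, and no interaction was called for it. The other 4 members of the run rose by log2 3.62 to 5.27 in light and 4.80 to 6.66 in darkness. All 4 had a smaller response in light, from −0.74 for TrB0327C to −2.08 for TrB0329W. TrB0329W illustrates this with 80.6, 119 and 85.0 CPM with methionine, against 5.75, 6.69 and 8.20 CPM without, in mutant light. In mutant darkness it had 76.2, 86.2 and 96.2 CPM with methionine, against 1.59, 0.941 and 1.63 CPM without, so light and dark overlap with methionine and do not overlap without it. TrB0331C, the model of the stretch that is no member, rose less, by log2 1.77 in light and 1.47 in darkness. Models on both flanks also rose: TrB0326W by 1.20 in light and 2.2 in darkness, TrB0334W by 2.01 and 3.55, and TrB0336C by 2.42 and 2.46. Between them TrB0335W, at 884 CPM with methionine and 418 CPM without in mutant light, rose by 0.92 in light and had −0.06 in darkness.

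The second run spans 10.7 kb near the start of contig 3 (51579 to 62277) and consists of 5 consecutive members. In order they are TrD0015C (TRIREDRAFT_66616), TrD0016C (TRIREDRAFT_66544), TrD0017C, TrD0018W (TRIREDRAFT_66614) and TrD0019W. The sum of the 5 was 268 ± 64.6 CPM with methionine and 2.74 ± 0.222 CPM without in mutant light, and 269 ± 48.2 CPM with and 3.54 ± 0.679 CPM without in mutant darkness. TrD0016C held most of it, with 130, 231 and 165 CPM with methionine, against 0.383, 0.533 and 0.225 CPM without, in mutant light. TrD0016C had 137, 140 and 197 CPM with methionine in mutant darkness, against 0.965, 0.443 and 0.302 CPM without. Its log2 fold changes were 8.66 (SE 0.34) in light and 7.83 (SE 0.33) in darkness. TrD0017C rose by 7.54 and 6.46, and the other 3 by 4.33 to 4.61 in light and 3.89 to 5.17 in darkness. No interaction was called for any of the 5. Models directly beside this run responded less. TrD0014C on one side rose by 0.88 in light and 0.61 in darkness. TrD0020C on the other side rose by 2.06 in light and had 0.17 in darkness, at 2.80 CPM or less. Farther out, at low levels, TrD0012C rose by 4.56 in darkness, with 1.79 CPM with methionine and 0.0563 CPM without. TrD0021C rose by 1.57 in darkness, with 2.03 CPM with and 0.57 CPM without. In light TrD0012C and TrD0021C had 0.19 and 0.33 with no call. TrD0022W, a little farther on, fell by 3.62 on the log2 scale in light with methionine, at 0.943 CPM with and 9.93 CPM without. In darkness TrD0022W had a log2 fold change of 0.05 with no call, at 54.5 CPM with and 45.0 CPM without.

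The third run spans 7.0 kb of contig 2 (4653477 to 4660484) and consists of 4 consecutive members: TrC1371W (TRIREDRAFT_59267), TrC1372C, TrC1373C (TRIREDRAFT_105979) and TrC1374W (TRIREDRAFT_105978). Their sum was 1748 ± 193 CPM with methionine and 22.0 ± 2.07 CPM without in mutant light, and 1650 ± 106 CPM with and 10.2 ± 0.679 CPM without in mutant darkness. TrC1374W led with 900, 1158 and 978 CPM with methionine, against 5.98, 5.33 and 6.29 CPM without, in mutant light. In mutant darkness TrC1374W had 739, 713 and 774 CPM with methionine, against 2.33, 2.66 and 2.96 CPM without. The log2 fold changes of TrC1374W were 7.26 (SE 0.14) in light and 7.87 (SE 0.15) in darkness. TrC1371W took the opposite side on lighting. It had 149, 177 and 159 CPM with methionine, against 0, 0.0592 and 0 CPM without, in mutant light. In mutant darkness TrC1371W had 439, 500 and 557 CPM with methionine, against 0.738, 0.609 and 0.786 CPM without. With methionine TrC1371W was lower in mutant light than in darkness by a log2 ratio of −1.62 (SE 0.11), while TrC1372C and TrC1374W were higher in light by 0.63 and 0.46. Wild type TrC1371W had 131, 129 and 136 CPM in light with methionine and 458, 538 and 555 CPM in darkness with it, again with no overlap. The interaction was 3.33 for TrC1371W (5.27 without mutant light replicate 2), −1.38 for TrC1373C and −0.61 for TrC1374W. TrC1372C had −0.40 with no call. Next to TrC1374W, TrC1375W also rose in both lightings, at low levels: its means were 2.18 CPM with methionine and 0 CPM without in mutant light, and 3.30 CPM with and 0.0605 CPM without in mutant darkness. In wild type with methionine it had 2.19 CPM in light and 2.76 CPM in darkness, under the level of 5 that the rule asked for. On the other side TrC1370W was not tested. Beyond it TrC1369C rose by 2.80 in mutant light, with 48.5 CPM with methionine and 6.18 CPM without. In mutant darkness TrC1369C rose by 2.63, with 25.5 CPM with and 3.45 CPM without. TrC1368W, farther out, had −0.60 in light and −0.66 in darkness.

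**Figure D4:**
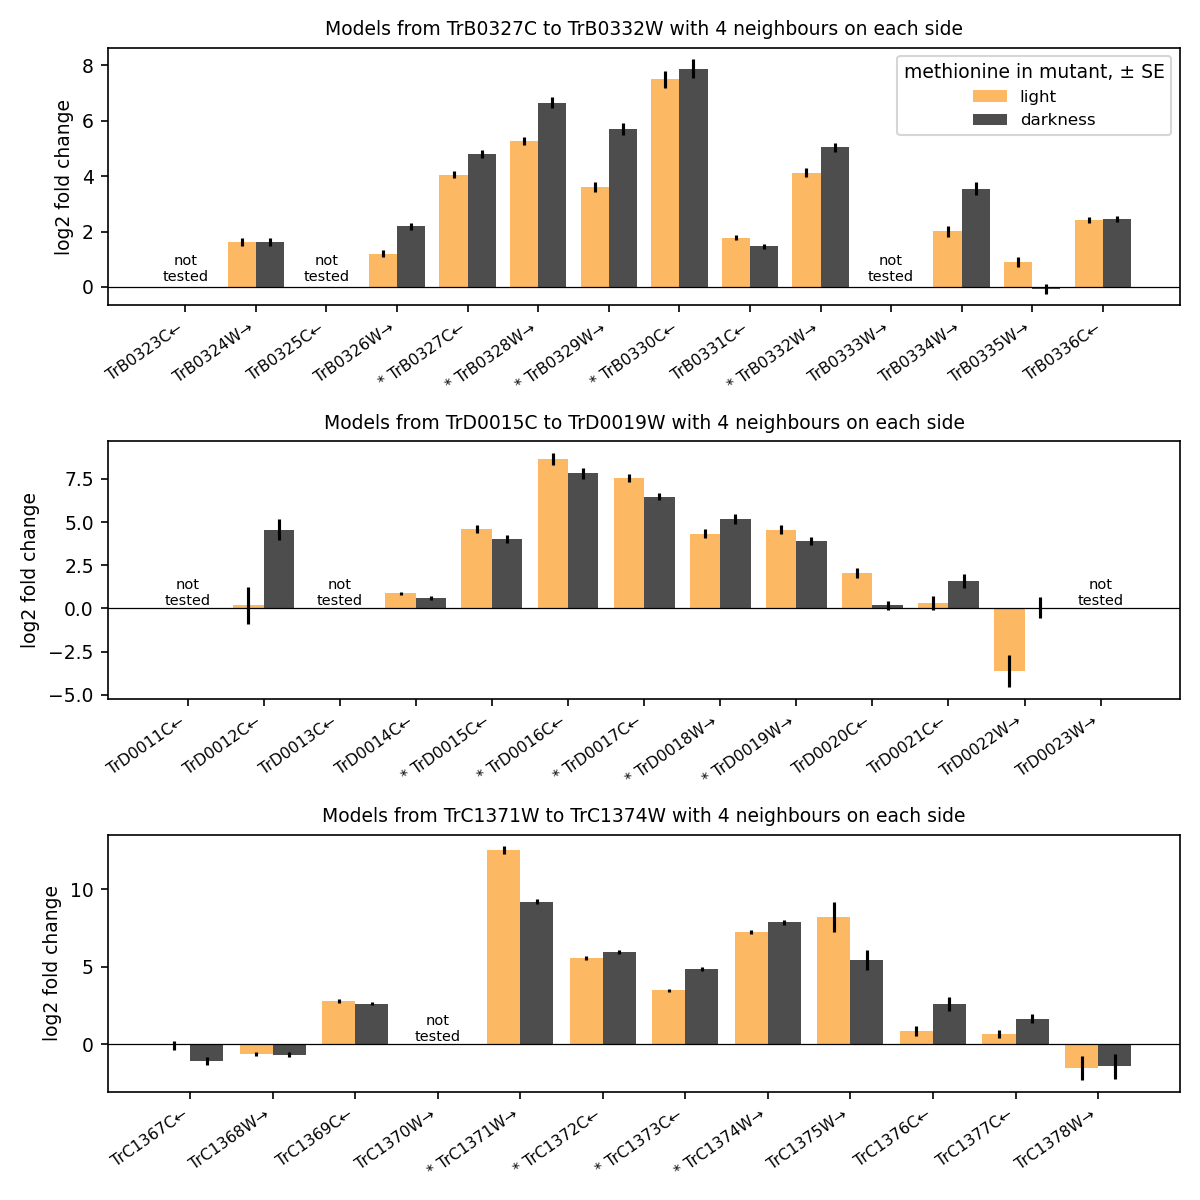
Log2 fold change with methionine in mutant light (orange) and mutant darkness (grey), ± SE, for each model of the 3 longest runs and 4 neighbours on each side, in contig order. Asterisks mark members and arrows the strand. In the second run TrD0014C (0.88 in light) adjoins TrD0015C (4.61 in light), and TrD0020C at the other end had 2.06 in light and 0.17 in darkness. In the first run TrB0326W, beside TrB0327C (4.06 in light), had 1.2 in light and 2.2 in darkness.

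Another 3 runs hold 3 consecutive members each, all on contig 3. TrD0032W, TrD0033W and TrD0034W (95157 to 105450) rose by log2 5.10, 6.49 and 3.20 in mutant light and by 4.55, 5.66 and 3.49 in mutant darkness. TrD1273W and TrD1274W, beside TrD1272C with its 0 counts in light (4012801 to 4017300), rose by 5.28 and 5.12 in light and by 5.27 and 4.66 in darkness. TrD1317C, TrD1318W and TrD1319W (4131762 to 4138780) rose by 6.26, 5.08 and 6.10 in light and by 6.51, 4.50 and 6.32 in darkness. TrD1317C and TrD1319W had closely similar levels: 250, 335 and 265 CPM for TrD1317C and 251, 255 and 224 CPM for TrD1319W in mutant light with methionine. Between them TrD1318W had 41.8, 37.2 and 34.4 CPM in the same libraries.

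Contig 3 held 37 members among 1443 models (2.56%), against 0.992% to 1.77% on the other 6 numbered contigs. Within 100 kb of a contig end lay 16 members (10%) and 441 of all models (4.05%). Among these 16 are TrD0032W and the 5 members of the run from TrD0015C to TrD0019W, all at the start of contig 3. Windows of 250 kb, drawn after the values had been seen, held a median of 1 member, and 63 of 143 held none. The first window of contig 3 held 15 members among 90 models (16.7%), including 2 of the runs of 3 or more. In that window 18 of 61 tested models outside the set were also called higher by at least 2-fold in both lightings of the mutant (29.5%), where 13.5% of all tested models outside the set were. Next came contig 3 from 4000001 to 4250000 with 7 members among 93 models, contig 2 from 4500001 to 4750000 with 6 among 89, and contig 2 from 1 to 250000 with 5 among 76. In the last of these 23 of 53 tested models outside the set (43.4%) rose likewise.

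Models outside the set that adjoined a member often responded as well. Directly next to a member, 76 of 226 tested models (33.6%) were called higher by at least 2-fold in both lightings of the mutant, beside the 13.5% just given. At 2 steps the share was 18.2%, and from 3 to 8 steps it lay between 13.7% and 21.0% with no steady trend. Split by orientation, 25 of 51 neighbours that diverge from a member (49.0%) responded, with a median gap of 1379 bases between the 2 models. For convergent neighbours it was 20 of 65 (30.8%), for same-strand neighbours downstream 18 of 59 (30.5%) and for same-strand neighbours upstream 16 of 55 (29.1%). In this split a model between a pair of members counts once for each, and the counts carry no test. Among the 23 adjacent member pairs, 12 were on the same strand (52.2%, beside 41.8% of all adjacent pairs), 7 diverged (30.4%, beside 29.1%) and 4 converged (17.4%, beside 29.1%). No member overlaps another model on its own strand in the table.

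**Figure D5:**
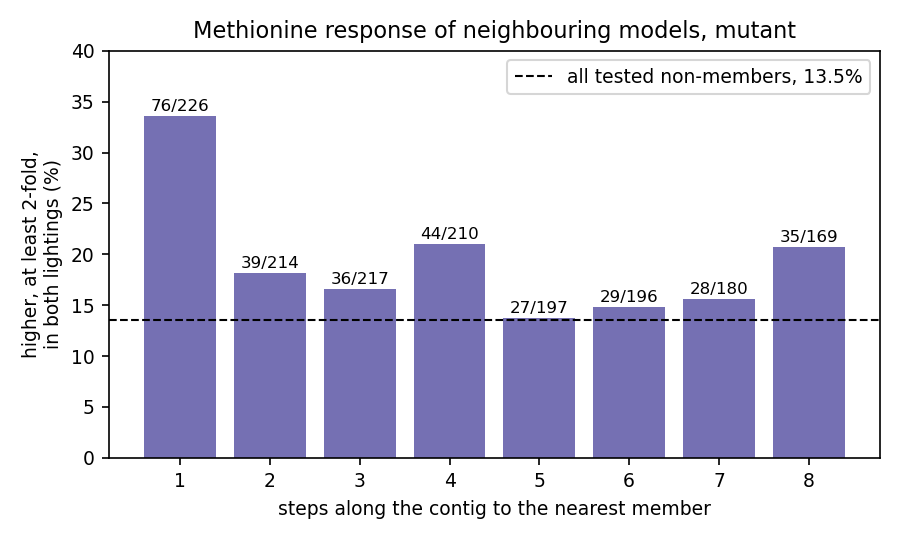
Share of tested models outside the set that were called higher by at least 2-fold with methionine in both lightings of the mutant, by the number of steps along the contig to the nearest member. Numbers above the bars are models called over models tested, and the dashed line is the share over all tested models outside the set. The bar at 1 step reaches 33.6%, against 13.7% to 21.0% at 2 to 8 steps.

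In structure the members resembled other models except at the extremes of length. Their median coding length was 1207 bases (quartiles 852 and 1542), beside 1113 bases (650 and 1731) for all models. Very short models were few: 1 of the 160 members was under 300 bases, against 875 of all 10879 models. Above 3000 bases were 5 members (3.12%) and 6.97% of all models. A single exon was found in 20.0% of members and 20.5% of all models. Counts per model also depend on length, and the part of the rule's limit of 5 in the lack of short members was not tested.

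Replicate libraries spread less with methionine, where levels were higher, than without it. The median coefficient of variation over the members was 13.0% with methionine and 17.2% without in mutant light, and 8.72% with and 18.8% without in mutant darkness. In wild type it was 7.55% with and 28.4% without in light, where replicate 3 stands apart, and 7.5% with and 19.3% without in darkness.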

How the data were processed

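Per the labels' protocols, total RNA of mycelium was depleted of ribosomal RNA and made into stranded libraries. The deposited table gives raw counts per gene model. Per the file headers, the authors counted read pairs on the reverse strand with featureCounts 2.0.1. The submitters' processing notes name the aligner HISAT2 2.2.1. The genome build, and how reads from near-identical gene copies were treated, are not given in the sources used here. A second deposited file holds a literature reference and no values.

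From the counts, CPM and the rule for the members were computed over column totals. The 12 mutant libraries were fitted in edgeR 4.0.16 under R 4.3.3: TMM normalization (factors 0.882 to 1.102), filterByExpr (minimum count 10), a one-factor model of the 4 mutant groups and the quasi-likelihood test, with Benjamini-Hochberg adjustment over the 9168 models left and a threshold of 0.05. All 160 members passed the filter. Log2 fold changes are those fitted from the deposited counts, with a common coefficient of biological variation of 0.134. The procedure was tested on simulated data.

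The members and lists were chosen with earlier results of these data known. The text names the 10 members highest in CPM with methionine in the mutant, the 3 longest runs, the 3 largest interactions in each direction, the 3 models on each side of the limit, and the 3 highest and lowest mutant to wild type ratios. Other models, such as those without counts and the run flanks, were named after their values were seen. Samples were grouped by title and genotype and treatment labels. In the mutant, libraries with and without methionine of the same lighting and the same number (1 to 3 in the titles) showed no clear shared deviation. Correlations of same-numbered deviations between these media ran from −0.19 to 0.13. They cannot show whether same-numbered cultures were set up together. Whether the numbers pair mutant with wild type libraries was not tested, and the genotype comparisons above do not pair them. In darkness with methionine some members varied alike by number in both genotypes. TrD0875C had 126, 54.8 and 33.7 CPM in the mutant and 127, 78.9 and 48.4 CPM in wild type. Others did not: TrB0738W had 2832, 2857 and 2924 CPM in the mutant and 3320, 3118 and 3062 CPM in wild type. Models were linked to locus tags of the RefSeq QM6a table by span length and the order of neighbours (at least 3 identical of 6 on each side), which linked 4010 models. That table gives locus tags and symbols only, so lists by product name and spore markers could not be applied. Alternatives were another normalization, DESeq2 1.42.0, no filter, all 24 libraries, a replicate block and leaving out each library.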

Additional observations from a re-analysis of the deposited data

Results flagged for a closer look

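The methionine response differed between the lightings in the mutant for 73 of the 160 members (45.6%, beside 41.8% of all tested models), by the interaction term of edgeR's quasi-likelihood test: 22 responded more strongly in light than in darkness (13.8%, beside 20.6% of all models) and 51 less strongly (31.9%, beside 21.2%). Lighting coincides with the series of library numbers, and the 2 cannot be told apart. Without methionine, all 22 were called lower in light (beside 84.8% of all models with a positive interaction) and 42 of the 51 higher (82.4%, beside 78.3% of those with a negative one). The rule limited the members' light difference with methionine in wild type, so their place without methionine is in part set by the choice of members.

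Among the 39 members named by rule, 21 were called in this test, and their interactions are given here as log2 response in light minus log2 response in darkness. Larger responses in light were found for TrA2099W (5.83), TrB0081C (5.71), TrA0227C (4.19), TrC1371W (3.33) and TrC1580C (2.17). For TrA2099W, TrB0081C and TrC1371W the mutant light group without methionine held 2, 0 and 1 counts, so the size of the value is poorly determined. Without mutant light replicate 2 it was 8.56 for TrA2099W and 5.27 for TrC1371W.

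Smaller responses in light were found for TrA0432C (−5.79), TrG1138W (−3.98) and TrC1355C (−3.26). TrA0432C had 0 counts and TrG1138W 2 counts in mutant darkness without methionine, and TrG1138W gave −6.86 without mutant dark replicate 1. In the run on contig 1 the values were −2.08 for TrB0329W, −1.39 for TrB0328W, −0.91 for TrB0332W and −0.74 for TrB0327C. In the run on contig 2 they were −1.38 for TrC1373C and −0.61 for TrC1374W. Among the members highest in level they were −1.11 for TrC0964C, −0.84 for TrD0370W, −0.73 for TrB0738W, −0.55 for TrD0058W, −0.51 for TrD1229W and −0.44 for TrB1914C. TrC0419W had −0.47, a call lost under the replicate block and under 7 of the 12 omissions of a library, and the call of TrB1914C was lost with all 24 libraries in the fit and under 3 omissions.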

How the results depend on the processing

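All 160 members were called higher with methionine in mutant light and in mutant darkness under each of the 17 alternatives: all 24 libraries in the fit, DESeq2 size factors, DESeq2, no filter, the replicate block and each mutant library left out. For the 30 members that passed the filter only through libraries with methionine, the calls were at least in part fixed by the filter. This split from the other 130 pools both lightings and does not say in which lighting a call was fixed. The interaction count of 73 ranged from 66 to 75 with a library left out. The count for light against darkness ranged from 61 to 84 with methionine, around 76, and from 89 to 100 without it, around 99. The replicate block gave 160, 160, 68, 73 and 99 for these 5 counts. In the mutant, same-numbered libraries with and without methionine showed no clear shared deviation. Of the named interactions, TrB1914C (−0.44) lost its call with all 24 libraries and with mutant dark replicate 2 or 3, or replicate 1 with methionine, left out (−0.44 to −0.40). TrC0419W (−0.47) lost its call under the replicate block and under 7 omissions (−0.47 to −0.38). The cause was not tested.

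The number of members depends on the limit: 361 at 4-fold and 74 at 16-fold. It was 138 with TMM scaling, 180 with 0.1 CPM and 137 with 1 CPM added, and 153 to 185 with a wild type library left out. The median ratio of mutant to wild type, recomputed after the data had been seen with a library left out, ran from 0.840 to 1.01 in light without methionine, where wild type replicate 3 decides it, from 1.04 to 1.12 in light with methionine, from 0.942 to 0.992 in darkness with methionine and from 0.903 to 0.938 in darkness without. Low levels limit the fold changes of members with few or no counts without methionine.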
